A study of Mus musculus with 6 samples.

Results

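This account covers the genes of the table whose symbols name BTB-Kelch proteins (KLHL and KBTBD), BTBD proteins, KCTD proteins, cullins and F-box proteins (FBXO, FBXL and FBXW). The rule for them uses symbol patterns and no measured value, and it found 142 genes among 14915 symbols. They fell into 43 BTB-Kelch, 11 BTBD, 20 KCTD, 8 cullin and 60 F-box genes. The RNA-seq libraries came from B16F10, a mouse melanoma cell line. The 3 WT libraries were from wild-type cells, and the 3 S127A libraries were, per the labels, from a B16F10 line carrying the S127A change of ZBTB5, a BTB zinc finger transcription factor, in which a serine is replaced by alanine. All 6 were from cells treated with TNFα, an inflammatory cytokine, under amino acid limitation, so no library shows the untreated state. The series' design text gives its question as how the loss of this phosphorylation site bears on the activation of mTORC1, the kinase complex that senses amino acids, by inflammation. Whether the S127A line was 1 clone is not given in the sources used here, and nothing in the labels says that replicates were separate cultures. The p-values therefore rest on differences among these samples alone, and those may be technical.

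Cullins are elongated scaffold proteins that hold a RING protein and its ubiquitin-conjugating enzyme at one end and a substrate receptor at the other. CUL1 takes F-box proteins through the adaptor SKP1, CUL3 takes BTB proteins directly, CUL2 and CUL5 work through elongins, and CUL4A and CUL4B work through DDB1. Attachment of the ubiquitin-like protein NEDD8 switches a cullin on, and the COP9 signalosome takes it off again. The receptors choose what is ubiquitinated, among them regulators of mTORC1, the cell cycle, the circadian clock, iron balance and the cytoskeleton. Some KCTD and BTBD proteins act outside cullin complexes, for example as subunits of G-protein-coupled receptors or as partners of transcription factors.

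The values are TPM, transcript abundances scaled to the library total, a level per length of transcript. The listed symbols summed to 862949 to 864529 TPM in the WT libraries and to 830745 to 833332 TPM in the S127A libraries. The columns thus did not reach the same total. TPM holds no read depth, none is known here, and the spread over the 3 libraries of a group is the error given (mean ± SD, n = 3). The 6 libraries held between 102 and 109 of the genes described at 1 TPM or more. ZBTB5 itself was listed at 15.9, 14.9 and 15.7 TPM in the WT libraries against 9.24, 8.24 and 9.21 TPM in the S127A libraries, a level that does not read the substitution. The libraries of the 2 groups were far apart in the markers of the labelled cell type: 12 of 12 melanocyte markers were lower in S127A, and their summed level ran from 15939 to 16249 TPM in WT and from 29.5 to 34.5 TPM in S127A. Of 10 fibroblast markers, 5 of 6 tested were higher and 1 was lower, with sums of 16.2 to 17.2 TPM in WT and 300.7 to 313 TPM in S127A. Most of that S127A sum was COL1A2 alone, at 275 ± 6.56 TPM, while LUM and THY1 were at 0 in all S127A libraries. Of 9 immune markers in the table, 2 were tested, CD14 higher and CD68 lower, with sums of 9.15 to 9.84 TPM against 49.0 to 53.9 TPM. CD14 alone, at 45.1 ± 1.77 TPM, made up most of the S127A sum. PTPRC, which defines blood-derived cells, did not pass 0.1 TPM in any library. Of 9 endothelial or epithelial markers, only KRT18 was tested, and it was higher, with list sums of 1.37 to 1.76 TPM against 63.5 to 64.3 TPM. Nearly all of the latter was KRT18, at 62.8 ± 0.362 TPM. By these markers the S127A libraries held almost none of the melanocyte transcripts of the WT libraries, although both groups are labelled B16F10. The markers do not settle which cells the S127A libraries came from. S127A therefore means below the libraries so labelled, and an effect of the substitution cannot be told apart from another difference between the lines. The part of the marker differences in the results below was not tested. In bulk samples, fewer cells of a type and less RNA per cell cannot be told apart.

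Ligase genes changed in both directions, with more of them lower than higher in S127A. Of the 142 genes, 111 reached a mean of 1 TPM over the 6 libraries and were tested. By limma with an adjusted p under 0.05, 100 of the 111 (90.1%) changed, against 90.0% of all 10348 tested genes, so the share that changed stood at the level of the whole table. In S127A, 37 (33.3%) were higher, against 40.2% of all tested genes, and 63 (56.8%) were lower, against 49.8%. A call with a change of at least 2-fold on the scale of log2(TPM + 1) was made for 40 (36.0%), against 35.4% of all tested genes. These were 13 higher (11.7%, against 15.5%) and 27 lower (24.3%, against 19.9%). The median log2 change was -0.28, against -0.12 over all tested genes. Scaling with TMM factors, a trimmed-mean scaling between libraries, moved the median of all tested genes to -0.02 and that of the ligase genes to -0.20, with 38 higher and 61 lower. Quantile normalization gave medians of 0.00 and -0.18, with 40 higher and 58 lower. At a common total the medians were -0.06 and -0.24, with 38 higher and 62 lower. The values of the groups did not overlap for 101 of the 111 genes (91.0%), beside 90.2% of all tested genes.

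**Figure D1:**
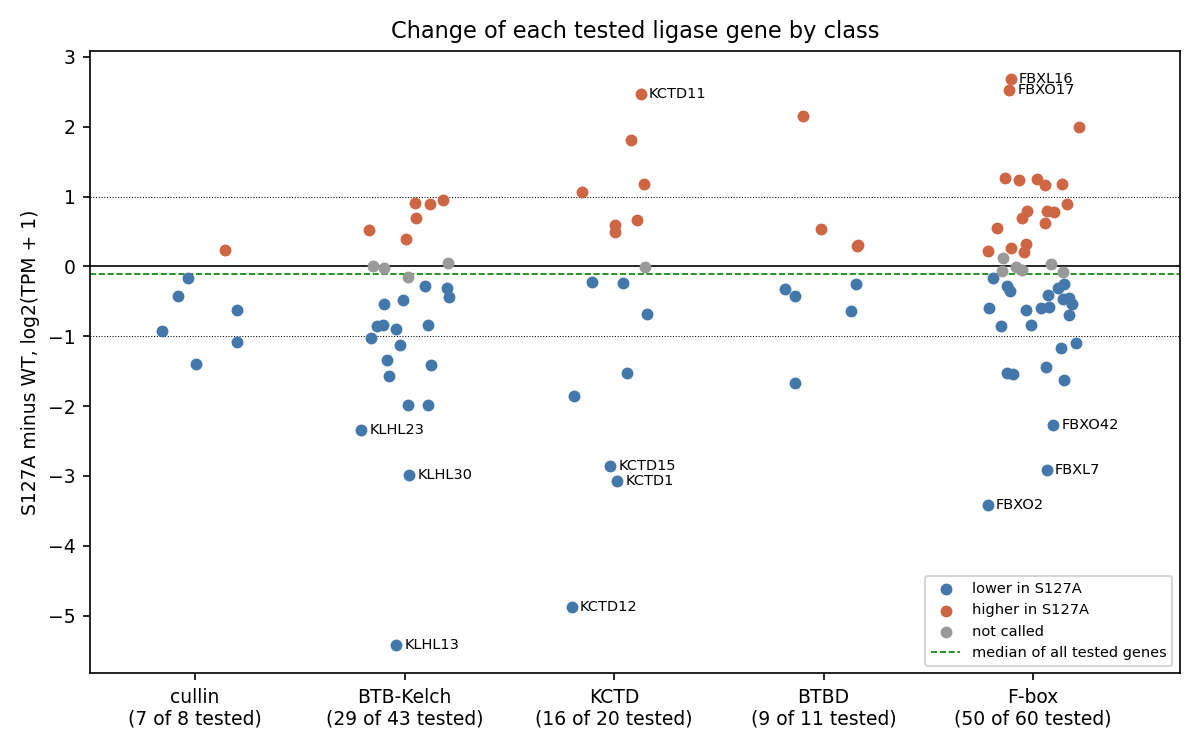
Log2 change of each of the 111 tested genes by class, S127A minus WT on log2(TPM + 1), with points spread sideways only for legibility. Dotted lines mark 2-fold changes and the dashed line the median of all tested genes (-0.12). The 7 cullins lie between -1.39 and 0.24, while KLHL13 and KCTD12 lie lowest at -5.42 and -4.88.

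By class, BTB-Kelch genes had 6 higher and 19 lower of 29 tested, with a median log2 change of -0.54. On log2(TPM + 1), 10 of the 19 fell by at least 2-fold and 0 of the 6 rose by as much, although 1 rise passed 2-fold with TMM factors and 2 did so after quantile normalization. Cullins had 1 higher and 6 lower of 7 tested, with a median of -0.62. KCTD genes had 7 higher and 8 lower of 16, with a median of -0.12, and 9 of them passed 2-fold. BTBD genes had 4 higher and 5 lower of 9, with a median of -0.25. F-box genes had 19 higher and 25 lower of 50, with a median of -0.12. The difference between classes was not tested, and these counts are a description beside the background shares above.

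The ranking of levels was rearranged. In WT the highest means were those of CUL1, CUL7, CUL3, KLHL22, KLHL9, FBXW11, KCTD17, CUL4A, FBXO22 and FBXO3. In S127A they were those of KCTD10, KLHL21, FBXW2, CUL4A, CUL1, FBXL5, FBXO6, CUL3, KCTD5 and FBXW8, and 3 of the 10 were shared. KCTD10 moved from position 12 to position 1, KLHL21 from 23 to 2, FBXL5 from 38 to 6 and FBXO6 from 40 to 7. Across the 111 genes, the correlation of mean log2 levels between the groups was 0.637 (Pearson) and 0.721 (Spearman). Over all 10348 tested genes it was 0.678 and 0.731. These are across genes, which share their libraries and are not independent replicates.

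Among the scaffolds, 6 of the 7 tested cullins fell and CUL4A rose, beside 49.8% lower and 40.2% higher over all tested genes. With TMM factors, and likewise with quantile normalization, 5 of the 7 were called lower. CUL1, the scaffold of the F-box ligases (chr6:47453398-47526139 in mm10), stood at 166, 167 and 168 TPM in the WT libraries against 80.1, 74.9 and 78.4 TPM in the S127A libraries. Every WT library lay far above every S127A library (log2 change -1.09 ± 0.034 (SE), adjusted p = 9.19e-11). CUL7, a scaffold that pairs with the F-box protein FBXW8, was listed at 118, 118 and 120.3 TPM in the WT libraries against 42.8, 44.9 and 45.97 TPM in the S127A libraries. On log2(TPM + 1), CUL7 had the largest fall of the tested cullins (log2 change -1.39 ± 0.037 (SE), adjusted p = 2.39e-11). The levels of its partner FBXW8 overlapped between the groups, at 61.98, 63.5 and 62.4 TPM in the WT libraries against 55.7, 61.02 and 63 TPM in the S127A libraries (log2 change -0.06, adjusted p = 0.21), and 33.4% of its exon bases are shared with an antisense transcript. CUL3, the scaffold of the BTB receptors, fell less, with 103, 92.1 and 96.2 TPM in the WT libraries against 73.2, 70.4 and 72.8 TPM in the S127A libraries (log2 change -0.42 ± 0.043 (SE), adjusted p = 2.81e-06).

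CUL4B and CUL4A, closely related scaffolds of the DDB1 ligases, moved in opposite directions. CUL4B read 56.03, 49.3 and 52.03 TPM in the WT libraries against 28.9, 25.1 and 27.2 TPM in the S127A libraries (log2 change -0.93 ± 0.060 (SE), adjusted p = 5.75e-08). CUL4A read 73.5, 70.3 and 73.3 TPM in the WT libraries against 83.4, 87.4 and 85.9 TPM in the S127A libraries (log2 change 0.24 ± 0.035 (SE), adjusted p = 6.57e-05). All S127A libraries were thus below WT for CUL4B and above WT for CUL4A. CUL5, which carries SOCS-box receptors, fell from 49.9 ± 1.17 to 32.04 ± 0.738 TPM (log2 change -0.62 ± 0.040 (SE), adjusted p = 4.68e-08). CUL2, which carries VHL, fell from 47.4 ± 1.23 to 42.3 ± 1.06 TPM (log2 change -0.16 ± 0.039 (SE), adjusted p = 0.00239). The CUL2 call was lost with TMM factors (log2 change -0.07, adjusted p = 0.111) and with quantile normalization (log2 change -0.09, adjusted p = 0.0534). CUL9, a large scaffold that binds p53, was below the test's level, with 1.17, 1.01 and 1.35 TPM in the WT libraries against 0.04, 0.06 and 0.02 TPM in the S127A libraries.

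**Figure D2:**
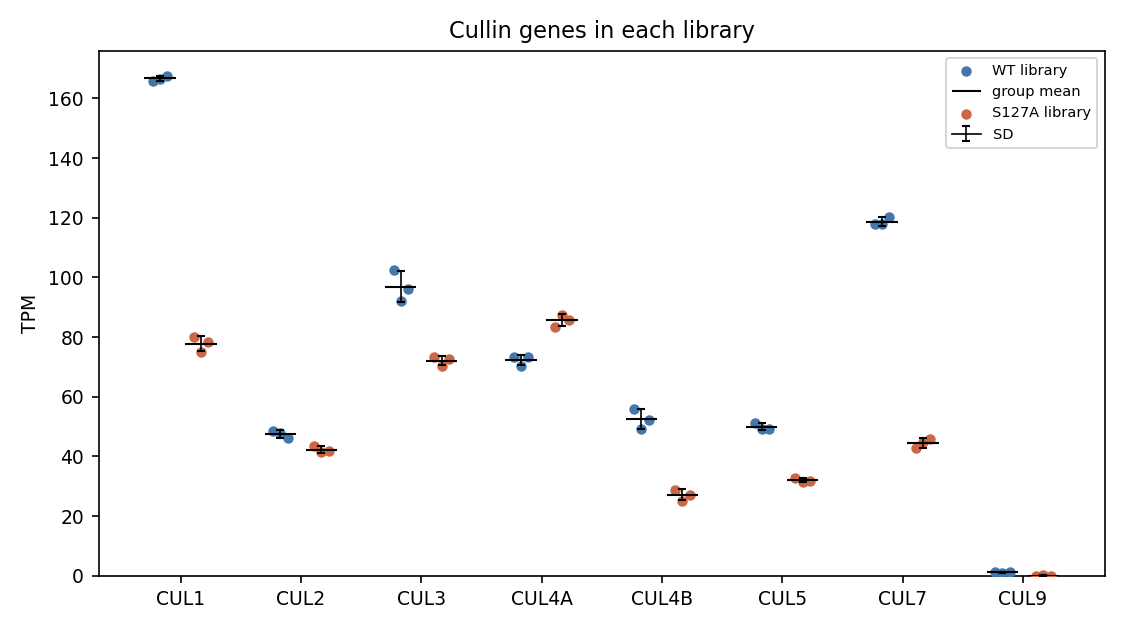
TPM of the 8 cullin genes in each library, with points for libraries, horizontal lines for group means and bars for the SD (n = 3). CUL1 and CUL7 show the widest gaps between WT and S127A, CUL4A alone is higher in S127A, and CUL9 lies near 0.

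The summed level of the 8 cullins dropped from 606 ± 11.4 TPM to 381 ± 5.08 TPM, a ratio of 0.630, or 0.654 after scaling each library to a common total. Within that sum the composition shifted. CUL1 made up 27.5 ± 0.59% of cullin TPM in WT and 20.4 ± 0.44% in S127A. CUL7 went from 19.6 ± 0.42% to 11.7 ± 0.48%. CUL4A went from 11.9 ± 0.13% to 22.4 ± 0.80%, which made it the most abundant cullin transcript in S127A. CUL3 held 15.5 to 16.6% in the WT libraries and 18.7 to 19.03% in the S127A libraries. The ratio of sums was 0.762 for BTB-Kelch, 0.814 for BTBD, 0.967 for KCTD and 0.916 for F-box genes, and at a common total it was 0.791, 0.845, 1.004 and 0.952, so that of KCTD turned with the scaling.

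BTB-Kelch genes, the receptors that CUL3 binds, were mostly lower in S127A. KLHL13, a receptor that with KLHL9 places Aurora B kinase during mitosis, was listed at 46.3, 41.2 and 43.4 TPM in the WT libraries against 0, 0.09 and 0.04 TPM in the S127A libraries. The S127A libraries lay at or near 0, apart from all WT libraries (log2 change -5.42 ± 0.070 (SE), adjusted p = 1.08e-13), the largest fall among the ligase genes on this scale. Its close relative KLHL9 was listed at 83.9, 76 and 75.3 TPM in the WT libraries against 30.1, 28.6 and 27.7 TPM in the S127A libraries and fell by 1.41 on the log2 scale, so that both partners fell. KLHL9 exons share 15.8% of their bases with an opposite-strand gene. Within libraries, the log2 ratio of KLHL9 to KLHL13, each as TPM + 1, rose from 0.83 ± 0.044 to 4.84 ± 0.11 (two-sided exact permutation test of 3 against 3 libraries, p = 0.1, the smallest it allows, 0.114 after Benjamini-Hochberg adjustment over 16 pairs). With KLHL13 at or near 0 TPM in S127A, the size of the S127A ratio rests largely on the 1 TPM added to each value. Of the 50-base words in KLHL13 transcripts, 1.48% occur in another gene. KLHL13 (ENSMUSG00000036782.13) lies at chrX:23219271-23365082 on the minus strand of mm10.

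The sequence upstream of KLHL13 is shown because the gene went from a well expressed level to almost none. It is 1 of 5 RefSeq start windows of the gene in GRCm38.p6, the assembly of mm10, at chrX:23365083-23365332, minus strand, and holds 12 CG dinucleotides, printed in capitals.
KLHL13: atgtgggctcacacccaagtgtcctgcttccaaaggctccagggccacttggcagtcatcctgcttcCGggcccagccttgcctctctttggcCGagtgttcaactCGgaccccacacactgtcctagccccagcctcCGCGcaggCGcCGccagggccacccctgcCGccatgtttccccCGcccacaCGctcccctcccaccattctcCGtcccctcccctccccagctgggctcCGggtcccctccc

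Other BTB-Kelch falls were large too. KLHL30 was listed at 19.6, 17.9 and 19.04 TPM in the WT libraries against 1.32, 1.54 and 1.66 TPM in the S127A libraries, with no overlap (log2 change -2.99 ± 0.073 (SE), adjusted p = 1.34e-11). KLHL23 fell from 6.21 ± 0.626 to 0.413 ± 0.0379 TPM (log2 change -2.35 ± 0.083 (SE), adjusted p = 3.08e-10); its values repeat those of a read-through symbol that joins it to PHOSPHO2, so the reads of the 2 cannot be told apart. KLHL42, a receptor for the microtubule-severing protein katanin, was listed at 25.6, 24.6 and 24.3 TPM in the WT libraries against 7.78, 7.47 and 7.76 TPM in the S127A libraries (log2 change -1.57 ± 0.052 (SE), adjusted p = 1.56e-10). KBTBD11 and KLHL29, outside the rule for named genes and picked after their values were seen, fell from 3.13 ± 0.444 to 0.0367 ± 0.0153 TPM and from 3.01 ± 0.163 to 0.0167 ± 0.0153 TPM, with no S127A library above 0.05 TPM. KBTBD11 exons share 24.8% of their bases with an annotated transcript on the opposite strand. KLHL18, a receptor for Aurora A, and KLHL24, a receptor for keratin 14, fell from 19.2 ± 0.265 to 6.97 ± 0.571 TPM and from 36.97 ± 1.91 to 16.5 ± 1.27 TPM. KBTBD4 fell by 1.02, but its exons share 52.8% of their bases with the opposite-strand gene Ptpmt1.

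KLHL22 is the CUL3 receptor that marks DEPDC5, a subunit of the GATOR1 brake on mTORC1, for degradation when amino acids are present. It had the highest mean of the BTB-Kelch genes in WT, with libraries that overlapped those of KLHL9, and fell, with 84.3, 81.4 and 90.3 TPM in the WT libraries against 43.1, 49.1 and 47.7 TPM in the S127A libraries (log2 change -0.86 ± 0.055 (SE), adjusted p = 5.06e-08). DEPDC5, its substrate, was also lower at the transcript level, from 18.7 ± 0.851 to 11.9 ± 0.226 TPM (log2 change -0.61, adjusted p = 8.07e-07). KLHL12, which ubiquitinates the COPII coat protein SEC31A to enlarge vesicles for collagen, read 22.1, 24.1 and 23.1 TPM in the WT libraries against 16.5, 16.2 and 16.2 TPM in the S127A libraries (log2 change -0.48 ± 0.049 (SE), adjusted p = 3.39e-06). SEC31A moved the other way, from 77.8 ± 2.32 to 148 ± 1.87 TPM (log2 change 0.92, adjusted p = 3.56e-10). KLHL25, a receptor for the unphosphorylated form of the translation repressor 4E-BP1, fell by 0.31, from 14.6 ± 0.457 to 11.5 ± 0.840 TPM. KBTBD8, which controls translation during neural crest specification, fell by 0.84, from 8.49 ± 0.271 to 4.31 ± 0.472 TPM. KBTBD7, a receptor for the Rac activator TIAM1, fell by 0.84 as well, although 16.2% of its 50-base words also occur in Kbtbd6. These are transcripts, and protein levels were not measured.

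In the other direction, 6 BTB-Kelch genes rose, with log2 changes of 0.39 to 0.95 on log2(TPM + 1). KLHL21, a further CUL3 receptor for Aurora B, read 49.3, 50.6 and 49.98 TPM in the WT libraries against 93.3, 104 and 94.9 TPM in the S127A libraries, so every S127A library was above every WT library (log2 change 0.95 ± 0.043 (SE), adjusted p = 2.64e-09). Its exons share 20.5% of their bases with an annotated transcript on the opposite strand, and the strand setting of the counting is not given in the sources used here. KLHL26 rose from 11.9 ± 0.667 to 22.99 ± 1.72 TPM (log2 change 0.89 ± 0.066 (SE), adjusted p = 1.75e-07). KLHL17, an actin-binding protein of neurons, rose from 4.81 ± 0.266 to 9.88 ± 0.657 TPM (log2 change 0.90 ± 0.069 (SE), adjusted p = 2.45e-07). KLHL2, which binds actin and targets WNK kinases, read 17.9, 17.8 and 17.7 TPM in the WT libraries against 28.3, 29.9 and 30 TPM in the S127A libraries (log2 change 0.69 ± 0.046 (SE), adjusted p = 6.33e-08). KLHL20, a receptor for the kinase DAPK1 and the protein PML, rose by less, from 17.2 ± 0.242 to 22.9 ± 0.0351 TPM (log2 change 0.39 ± 0.045 (SE), adjusted p = 7.99e-06), and KLHL5 rose by 0.52.

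KBTBD2, a receptor for the p85α subunit of PI3-kinase, gave no call, with 53.1, 49.2 and 49.3 TPM in the WT libraries against 49.04, 49.04 and 50.7 TPM in the S127A libraries (log2 change -0.03, adjusted p = 0.568). KBTBD3, KLHL7 and KLHL28 likewise gave no call and overlapped between the groups. Under other scalings the change of KBTBD2 turned to 0.03 to 0.07, also with no call.

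**Figure D3:**
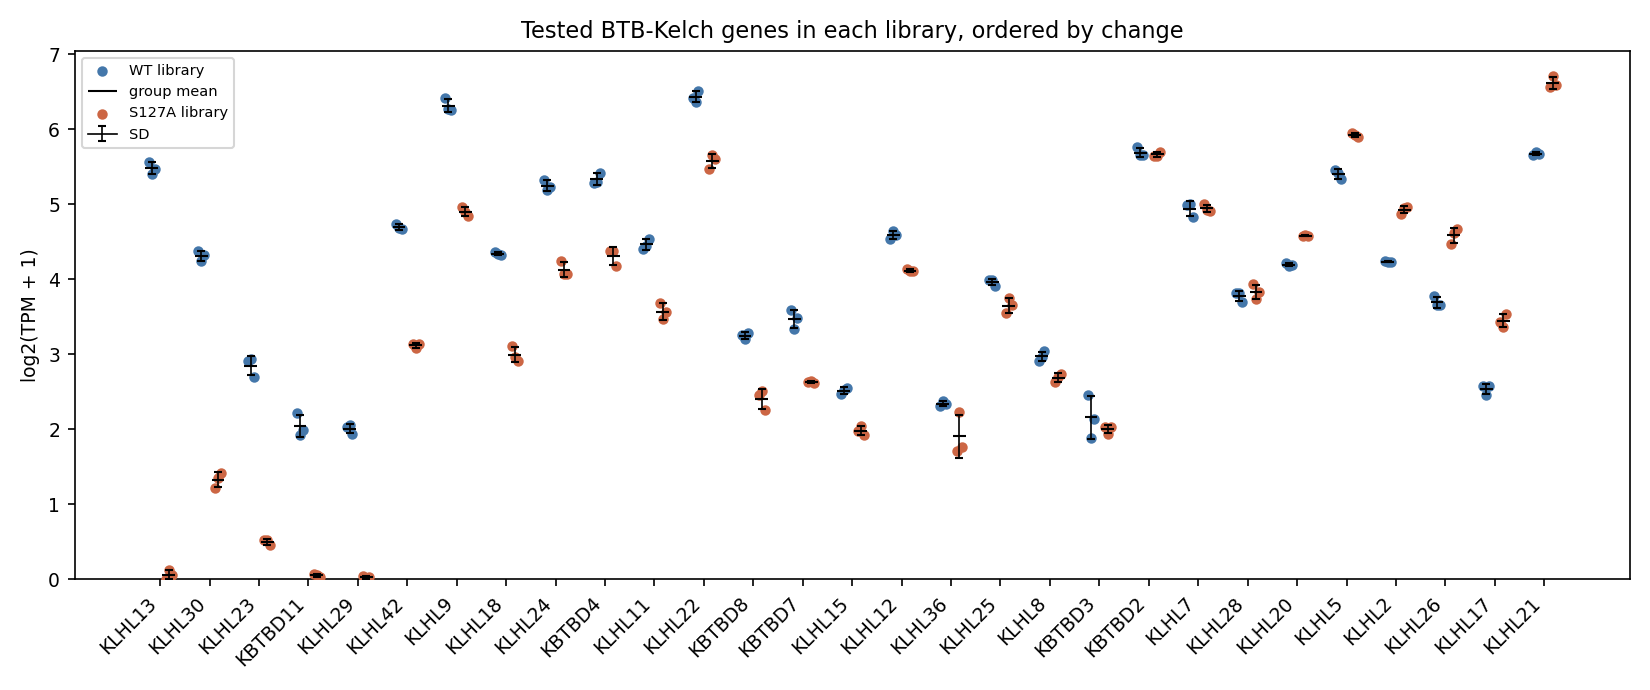
Levels of the 29 tested BTB-Kelch genes on log2(TPM + 1) in each library, ordered by change, with group means and SD bars (n = 3). KLHL13 falls from above 5 to near 0 at the left, and KLHL21 at the right rises from below 6 to above 6.

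KCTD genes changed in both directions, and 9 of the 16 tested (56.25%) did so by at least 2-fold, beside 35.4% of all tested genes. The difference from that share was not tested. KCTD12, an auxiliary subunit of GABA-B receptors, was listed at 33.8, 29.7 and 29.6 TPM in the WT libraries against 0.21, 0.02 and 0.04 TPM in the S127A libraries. The S127A libraries lay near 0 and did not overlap WT (log2 change -4.88 ± 0.087 (SE), adjusted p = 1.1e-12). The exons of KCTD12 (ENSMUSG00000098557.1, chr14:102976581-102982637) share 62.8% of their bases with a noncoding gene on the opposite strand, so without a known strand setting the reads of the 2 cannot be told apart. KCTD1 and KCTD15, related proteins that repress the neural crest transcription factors of the TFAP2 family, fell together. KCTD15 was listed at 51.03, 52.96 and 52.4 TPM in the WT libraries against 5.88, 6.94 and 6.19 TPM in the S127A libraries (log2 change -2.86 ± 0.060 (SE), adjusted p = 3.95e-12). KCTD1 was listed at 26.1, 23.7 and 24.98 TPM in the WT libraries against 1.81, 2.09 and 2.37 TPM in the S127A libraries (log2 change -3.07 ± 0.077 (SE), adjusted p = 1.67e-11). The log2 ratio of KCTD1 to KCTD15 was -1.04 ± 0.093 in WT and -1.25 ± 0.14 in S127A (exact permutation p = 0.2, 0.213 after adjustment over the 16 pairs).

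KCTD17, which promotes the assembly of primary cilia, fell from 77.6 ± 2.65 to 20.6 ± 1.33 TPM (log2 change -1.86 ± 0.051 (SE), adjusted p = 3.57e-11). Its paralog KCTD5, a CUL3 adaptor that restrains G-protein βγ signalling, rose, with 42.6, 43.1 and 44.7 TPM in the WT libraries against 58.7, 65.1 and 61.8 TPM in the S127A libraries (log2 change 0.50 ± 0.045 (SE), adjusted p = 9.54e-07). KCTD2, the third of this trio, fell from 26.7 ± 1.58 to 16.2 ± 1.24 TPM (log2 change -0.69 ± 0.065 (SE), adjusted p = 1.43e-06). So in S127A KCTD5 rose while both of its relatives fell. KCTD7, mutated in a progressive myoclonic epilepsy, fell by 1.53.

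KCTD10 became the most abundant transcript of all the ligase genes in S127A. Together with KCTD13 and TNFAIP1 it forms the group of CUL3 adaptors that target RhoA and RhoB. KCTD10 was listed at 70.3, 66.9 and 67.2 TPM in the WT libraries against 153, 157 and 158 TPM in the S127A libraries, so the groups lay well apart (log2 change 1.18 ± 0.034 (SE), adjusted p = 4.81e-11). KCTD13 rose from 22.9 ± 2.86 to 36.7 ± 0.981 TPM (log2 change 0.66 ± 0.076 (SE), adjusted p = 8.06e-06), whereas TNFAIP1, outside the symbol rule, fell from 109.8 ± 3.73 to 55.05 ± 0.366 TPM (log2 change -0.98, adjusted p = 3.59e-10). The substrate transcripts RHOB and RHOA changed by -1.58 and -0.15, RHOB from 112 ± 2.36 to 36.9 ± 0.297 TPM and RHOA from 382 ± 17.6 to 344 ± 6.97 TPM. The RHOA call was lost with TMM factors (log2 change -0.05, adjusted p = 0.167) and with quantile normalization (log2 change -0.05, adjusted p = 0.236). KCTD10 exons share 37.9% of their bases with the opposite-strand gene Myo1h, whose own mean was 5.76 TPM in the WT group and 5.37 TPM in the S127A group.

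KCTD11 and KCTD6, CUL3 adaptors for the histone deacetylase HDAC1 that restrain Hedgehog signalling, rose from low levels. KCTD11 read 1.08, 0.91 and 1.23 TPM in the WT libraries against 10.1, 10.6 and 10.8 TPM in the S127A libraries (log2 change 2.47 ± 0.076 (SE), adjusted p = 9.19e-11). KCTD6 read 3.93, 3.9 and 3.83 TPM in the WT libraries against 15.9, 16.01 and 16.6 TPM in the S127A libraries (log2 change 1.81 ± 0.056 (SE), adjusted p = 1e-10). No S127A library overlapped WT for either gene. KCTD21, the third adaptor of that group, gave no call and overlapped, with 3.96, 3.44 and 4.9 TPM in the WT libraries against 4.34, 3.76 and 3.98 TPM in the S127A libraries (log2 change -0.01, adjusted p = 0.909). The log2 ratio of KCTD6 to KCTD21 went from -0.05 ± 0.22 to 1.77 ± 0.096 (exact permutation p = 0.1, 0.114 after adjustment over the 16 pairs). KCTD9 rose from 21.3 ± 1.77 to 45.3 ± 0.778 TPM (log2 change 1.06 ± 0.058 (SE), adjusted p = 1.37e-08), and KCTD18 rose by 0.60. KCTD18 exons share 18.9% of their bases with the opposite-strand gene Sgo2a.

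The upstream sequences of KCTD12 and KCTD10 are shown as those of the KCTD gene that fell most and of the one that reached the highest level. The KCTD12 stretch (chr14:102982638-102982887, minus strand, GRCm38.p6) holds 36 CG dinucleotides, printed in capitals, close to the number its base composition gives (observed over expected 0.983). The KCTD10 stretch (chr5:114380509-114380606, minus strand) is the 98 bases between KCTD10 and UBE3B, a ubiquitin ligase gene that starts in the other direction. UBE3B rose too, by 0.35, from 43.98 ± 0.611 to 56.4 ± 1.74 TPM (adjusted p = 5.08e-06).
KCTD12: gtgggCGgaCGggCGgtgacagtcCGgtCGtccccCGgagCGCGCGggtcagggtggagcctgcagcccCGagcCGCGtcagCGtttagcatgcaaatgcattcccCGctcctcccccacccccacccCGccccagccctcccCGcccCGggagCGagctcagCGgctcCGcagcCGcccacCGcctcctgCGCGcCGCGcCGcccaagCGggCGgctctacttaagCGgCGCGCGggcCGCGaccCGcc
KCTD10: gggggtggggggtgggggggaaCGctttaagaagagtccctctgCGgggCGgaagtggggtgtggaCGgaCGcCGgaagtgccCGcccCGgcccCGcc

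**Figure D4:**
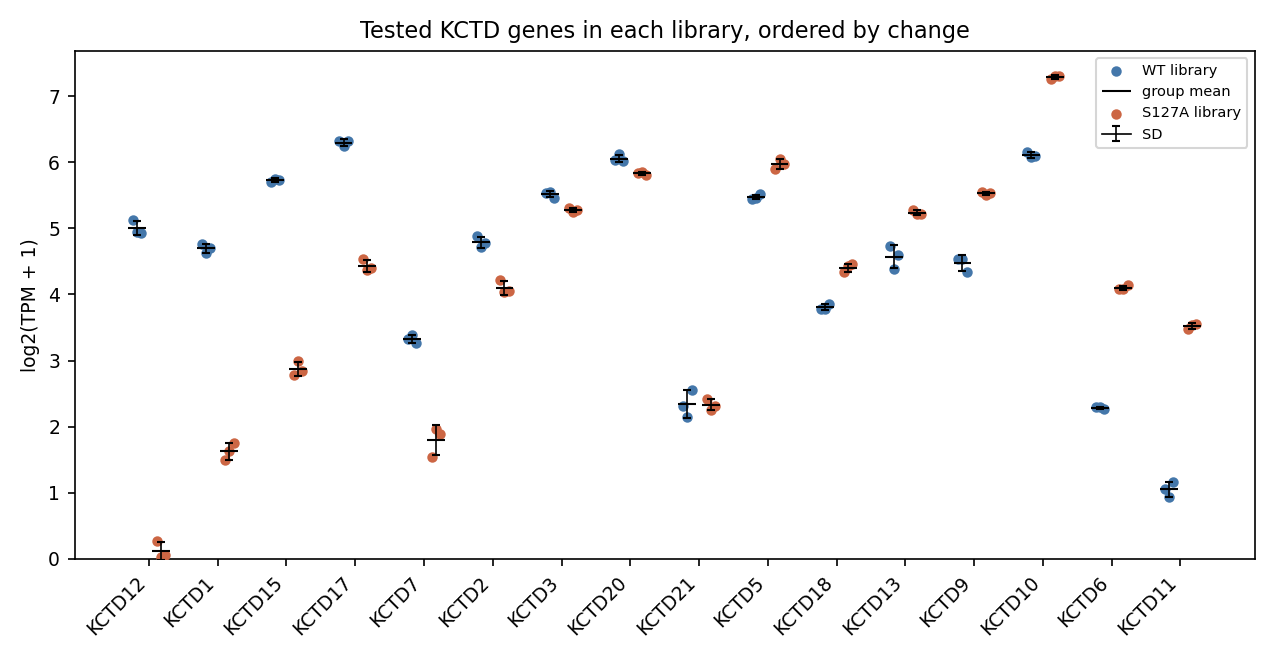
Levels of the 16 tested KCTD genes on log2(TPM + 1) in each library, ordered by change, with group means and SD bars (n = 3). KCTD12, KCTD1 and KCTD15 at the left change by -4.88, -3.07 and -2.86, and KCTD10, KCTD6 and KCTD11 at the right by 1.18, 1.81 and 2.47.

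Of the 9 tested BTBD genes, 4 rose and 5 fell, beside 40.2% higher and 49.8% lower over all tested genes. BTBD6, known from zebrafish as a CUL3 adaptor needed for neuronal differentiation, fell, with 17.2, 15.8 and 15.9 TPM in the WT libraries against 4.54, 4.67 and 4.16 TPM in the S127A libraries (log2 change -1.66 ± 0.064 (SE), adjusted p = 6.38e-10). BTBD1 and BTBD2, paralogs that bind DNA topoisomerase I, moved apart. BTBD1 fell from 49.3 ± 1.68 to 31.3 ± 0.996 TPM (log2 change -0.64 ± 0.043 (SE), adjusted p = 8.35e-08) and BTBD2 rose from 18.1 ± 0.165 to 22.8 ± 1.97 TPM (log2 change 0.31 ± 0.063 (SE), adjusted p = 0.000685). For BTBD1, 25.1% of the 50-base words of its transcripts also occur in another annotated gene, so its level is uncertain. BTBD10 and BTBD3 fell by 0.43 and 0.32, and BTBD9, linked to restless legs syndrome, rose by 0.29. The level of BTBD9 is uncertain too, as 14.8% of its 50-base words also occur in another annotated gene. BTBD11 was listed at 0 in all 3 WT libraries and at 3.53, 3.27 and 3.52 TPM in the S127A libraries, below the level of the rule for named genes and picked after its values were seen.

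F-box proteins are the receptors of CUL1. The FBXO subclass had 9 higher and 17 lower of 28 tested, FBXL had 7 higher and 6 lower of 15, and FBXW had 3 higher and 2 lower of 7. Beside these, 40.2% of all tested genes were higher and 49.8% lower, and the difference between subclasses was not tested. On log2(TPM + 1) the largest fall was that of FBXO2, which recognises sugar chains on misfolded glycoproteins, with 24.1, 24.6 and 24.5 TPM in the WT libraries against 2.01, 0.79 and 1.49 TPM in the S127A libraries (log2 change -3.42 ± 0.15 (SE), adjusted p = 1.86e-09). FBXL7, a receptor that targets Aurora A and survivin, was listed at 6.16, 6.91 and 6.62 TPM in WT and at 0 in all 3 S127A libraries (adjusted p = 1.82e-11), so no fold is given; with a pseudocount of 0.1 its fall is larger than that of FBXO2. FBXO42, a receptor for p53, read 65, 67.1 and 64.9 TPM in the WT libraries against 12.1, 13.4 and 13 TPM in the S127A libraries (log2 change -2.27 ± 0.048 (SE), adjusted p = 4.33e-12). FBXL19, which binds unmethylated CG-rich DNA, fell from 51.4 ± 3.84 to 15.97 ± 0.785 TPM (log2 change -1.63 ± 0.060 (SE), adjusted p = 4.58e-10). FBXO10, FBXO33, FBXO44, FBXO32 and FBXO7, a gene of inherited parkinsonism, also fell by at least 2-fold.

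FBXL16 had the largest rise of the ligase genes on log2(TPM + 1), though not as a ratio of TPM, with 2.47, 2.06 and 2.32 TPM in the WT libraries against 18.9, 20.4 and 20.9 TPM in the S127A libraries (log2 change 2.68 ± 0.070 (SE), adjusted p = 2.39e-11). FBXO17, a relative of FBXO2, read 0.36, 0.16 and 0.53 TPM in the WT libraries against 7.12, 6.55 and 6.43 TPM in the S127A libraries (log2 change 2.52 ± 0.10 (SE), adjusted p = 9.79e-10). FBXO24 rose from 0.52 ± 0.108 to 5.05 ± 0.441 TPM (log2 change 1.99 ± 0.087 (SE), adjusted p = 1.83e-09), but 112 of its 2512 exon bases lie in exons of Pcolce on the same strand, whose mean went from 148 to 553 TPM. FBXL5 is the iron sensor that, when iron is ample, marks the iron regulatory protein IREB2 for degradation. It read 31.6, 30.1 and 32.1 TPM in the WT libraries against 77.2, 76.2 and 75.5 TPM in the S127A libraries, all S127A libraries being above WT (log2 change 1.26 ± 0.038 (SE), adjusted p = 8.56e-11). The transcript of its substrate IREB2 fell from 64.9 ± 2.92 to 35.2 ± 1.99 TPM (log2 change -0.86, adjusted p = 2.24e-08). FBXW9, FBXO36, FBXO48 and FBXO6 also rose by at least 2-fold.

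Several receptors of well known regulators are given whatever their values. FBXW7, which targets MYC and cyclin E, read 18.03, 17.98 and 17.6 TPM in the WT libraries against 12.4, 12.5 and 13.6 TPM in the S127A libraries (log2 change -0.45 ± 0.054 (SE), adjusted p = 1.14e-05). FBXW11, one of the β-TrCP receptors for β-catenin and for the NF-κB inhibitor IκBα, read 78.3, 78.3 and 77.96 TPM in the WT libraries against 58.6, 54.5 and 56.1 TPM in the S127A libraries (log2 change -0.46 ± 0.037 (SE), adjusted p = 3.3e-07). Both were lower in every S127A library. FBXO5, an inhibitor of the anaphase-promoting complex, read 40.1, 45.04 and 40.9 TPM in the WT libraries against 47.4, 49.8 and 50.1 TPM in the S127A libraries (log2 change 0.22 ± 0.049 (SE), adjusted p = 0.00147). It was higher in every S127A library. FBXO32, a receptor induced in wasting muscle, fell from 2.95 ± 0.223 to 0.757 ± 0.0603 TPM (log2 change -1.17 ± 0.078 (SE), adjusted p = 7.11e-08), whereas its paralog FBXO25 rose from 25.4 ± 1.62 to 30.5 ± 1.01 TPM (log2 change 0.26 ± 0.054 (SE), adjusted p = 0.000903). FBXW5, a receptor for the mTORC1 inhibitor TSC2, gave no call and overlapped, with 42.6, 40.9 and 42.1 TPM in the WT libraries against 41.3, 41.5 and 38.3 TPM in the S127A libraries (log2 change -0.05, adjusted p = 0.263).

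Other F-box receptors are given here outside the rule for named genes. FBXO22, a receptor for the histone demethylase KDM4A, fell by 0.83, from 72.3 ± 2.06 to 40.1 ± 0.843 TPM. FBXO22 exons share 15.4% of their bases with the opposite-strand gene Nrg4. FBXL17, which removes wrongly paired BTB proteins, fell by 0.40, from 12.3 ± 0.591 to 9.01 ± 0.192 TPM. FBXO30 and FBXO21 fell by 0.60 and 0.62. FBXW2 rose from 50.4 ± 1.86 to 88.2 ± 0.407 TPM (log2 change 0.80, adjusted p = 3.11e-09), which placed it among the most abundant receptors of S127A. FBXO4 and FBXO31, both described as receptors for cyclin D1, rose by 0.89 and 0.54. FBXL6 rose by 0.78 and FBXL12 by 0.80, the latter with 37.1% of its exon bases shared with the opposite-strand gene Ubl5. FBXO11, a receptor for BCL6, gave no call although its groups did not overlap, with 51.8, 49.6 and 49.03 TPM in the WT libraries against 46.9, 48.98 and 46.6 TPM in the S127A libraries (log2 change -0.08, adjusted p = 0.0894).

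A cluster on chromosome 4 held 3 related F-box genes that did not move together. FBXO2 lies at chr4:148160621-148166424 on the plus strand of mm10. FBXO44 lies at chr4:148152800-148160482 and FBXO6 at chr4:148145716-148152140, both on the minus strand. FBXO2 and FBXO44 start 138 bases apart in opposite directions, and both fell. FBXO44 was listed at 62.2, 60.1 and 62.1 TPM in the WT libraries against 20.98, 21.99 and 23.4 TPM in the S127A libraries (log2 change -1.43 ± 0.047 (SE), adjusted p = 1.61e-10). FBXO6, whose gene lies 659 bases beyond the end of FBXO44, rose, with 28.6, 28.2 and 33.8 TPM in the WT libraries against 69.9, 76.5 and 73.96 TPM in the S127A libraries (log2 change 1.26 ± 0.066 (SE), adjusted p = 9.22e-09). In WT the log2 ratio of FBXO6 to FBXO44 was -1.01 ± 0.13, and in S127A it was 1.69 ± 0.067, so their order was reversed in all 3 libraries.

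The stretch between FBXO2 and FBXO44 and the stretch upstream of FBXO6 are shown because neighbours on either side of FBXO44 changed in opposite directions. The first (chr4:148160483-148160620, plus strand, GRCm38.p6) holds 14 CG dinucleotides in 138 bases and the second (chr4:148152141-148152385, minus strand), 1 of 3 start windows of FBXO6, holds 2 in 245 bases. Capitals mark the CG dinucleotides.
FBXO2: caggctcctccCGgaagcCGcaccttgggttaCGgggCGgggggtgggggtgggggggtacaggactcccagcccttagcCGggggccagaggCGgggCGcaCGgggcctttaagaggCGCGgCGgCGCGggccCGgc
FBXO6: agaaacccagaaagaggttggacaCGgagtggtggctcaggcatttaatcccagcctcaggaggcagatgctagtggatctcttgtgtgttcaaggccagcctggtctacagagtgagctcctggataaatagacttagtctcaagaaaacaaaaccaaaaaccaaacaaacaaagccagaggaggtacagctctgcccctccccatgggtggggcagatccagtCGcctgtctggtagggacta

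The 5 printed stretches and the upstream windows of the other genes were searched on both strands for the E-box CACGTG, the related CATGTG, the AP-1 site TGANTCA and the CRE TGACGTCA. None of the 5 stretches held any of these letters. RefSeq start windows of 250 bases were matched for 111 of the 142 genes by symbol, with 157 windows among 32851 in the table. CACGTG stood in 6.37% of the ligase windows and 6.02% of all windows, CATGTG in 7.01% and 12.3%, TGANTCA in 6.37% and 6.75%, and TGACGTCA in 1.27% and 1.55%. The ligase windows were richer in CG dinucleotides, with a median ratio of observed to expected of 0.697 against 0.374 over all windows. The next medians are over windows, so a gene with several starts counts more than once. The median ratio was 0.776 for genes that fell by at least 2-fold (37 windows of 20 genes). It was 0.696 for those that rose by at least 2-fold (17 windows of 10 genes) and 0.775 for the other tested genes (74 windows of 58 genes). The value for fallen genes was thus that of the other tested genes. Genes too low to test had 0.339 (29 windows of 23 genes). Among genes that fell by at least 2-fold, CACGTG stood upstream of CUL1 and FBXO10 and TGANTCA upstream of CUL1 and at another start of KLHL13. Among those that rose by at least 2-fold, TGANTCA stood upstream of BTBD11 and KCTD11, CATGTG upstream of BTBD11 and FBXO48 and TGACGTCA upstream of FBXW9. A match is a description of letters and not a site.

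Of 24 pairs of related genes present in the table, 16 had both genes tested, and in 8 of these the 2 genes were called in opposite directions and in 4 in the same direction. KCTD5 and FBXO6 each stand in 2 of the 8, and over all tested genes 40.2% were higher and 49.8% lower, so the pairs are described and not read as a result about relatedness. Ratios within a library are not moved by a scaling factor except through the pseudocount. The log2 ratio of CUL4A to CUL4B rose from 0.46 ± 0.064 to 1.63 ± 0.13. That of KLHL21 to KLHL30 rose from 1.36 ± 0.085 to 5.29 ± 0.11, and that of KCTD5 to KCTD17 from -0.82 ± 0.054 to 1.54 ± 0.16. For KCTD17 and KCTD5 and for FBXO44 and FBXO6, the gene that was more abundant in WT was the less abundant one in S127A. That of FBXO2 to FBXO6 went from -0.29 ± 0.14 to -4.97 ± 0.44, and that of FBXO25 to FBXO32 from 2.74 ± 0.16 to 4.16 ± 0.063. The ratio of BTBD1 to BTBD2 went from 1.40 ± 0.037 to 0.45 ± 0.10 and that of KCTD2 to KCTD5 from -0.69 ± 0.10 to -1.87 ± 0.17. Since these 8 pairs were picked for their opposite calls, their ratios are a description and no test is given.

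**Figure D5:**
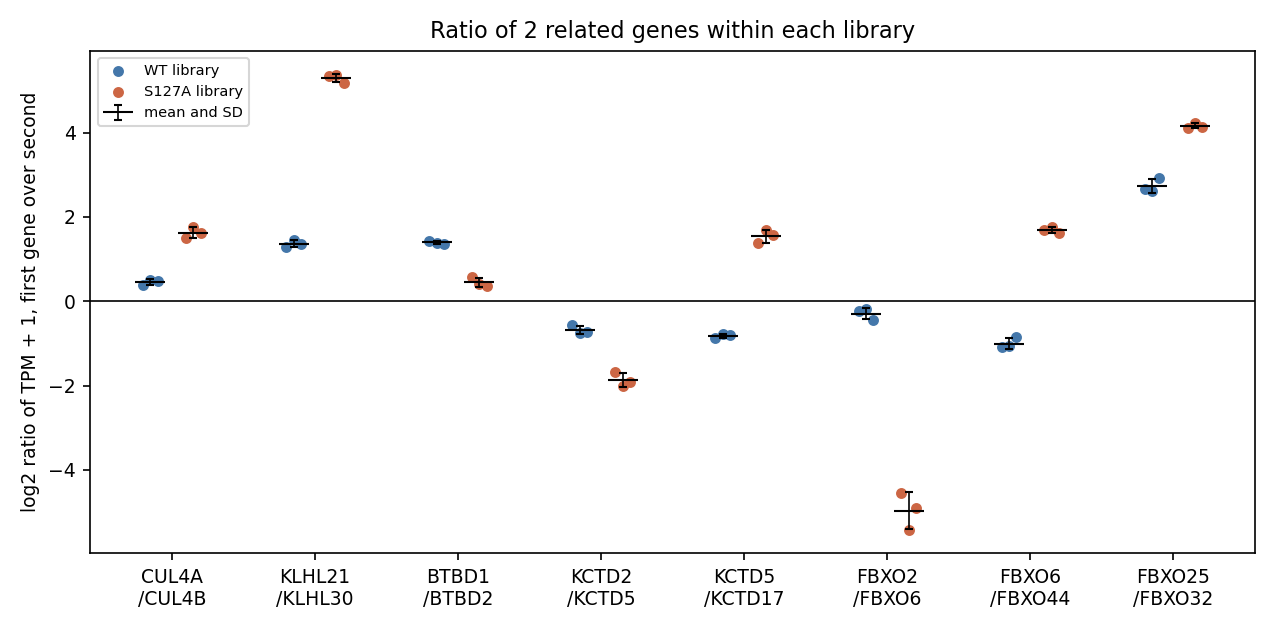
Log2 ratio of TPM + 1 between the 2 genes of each pair called in opposite directions, in each library, with mean and SD bars (n = 3). The widest gap is that of FBXO2 to FBXO6, from -0.29 to -4.97, and the ratios KCTD5 to KCTD17 and FBXO6 to FBXO44 cross 0.

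The 11 tested genes with no call were KBTBD2, KBTBD3, KLHL7, KLHL28, KCTD21, FBXO11, FBXO46, FBXL2, FBXL18, FBXW5 and FBXW8, with log2 changes from -0.16 to 0.12. A missed threshold does not show that their levels were equal. The 31 genes below the test's level included KLHL3, KLHL40 and KLHL41, which are best known from kidney or muscle, and FBXO40, a muscle receptor. KBTBD13, BTBD17 and FBXO27 were listed at 0 in all 6 libraries, and no value of the 31 passed 1.35 TPM. Of the 111 tested, 11 had a mean of 1 TPM or more in 1 group only, 8 of them in WT and 3 in S127A. The same count was not made over all tested genes. In the whole table, 9903 to 9926 symbols stood at 1 TPM or more in the WT libraries and 9677 to 9687 in the S127A libraries.

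The machinery that switches cullins on and off changed in both directions. Of 26 genes for NEDD8 conjugation and its control, 23 were in the table and tested, with 6 higher, 14 lower and a median log2 change of -0.24, beside 40.2% higher, 49.8% lower and a median of -0.12 over all tested genes. With TMM factors there were 8 higher and 12 lower, and with quantile normalization 9 and 12. DCUN1D4, which helps to place NEDD8 on cullins, fell from 27.6 ± 1.13 to 3.65 ± 0.118 TPM (log2 change -2.62, adjusted p = 5.72e-12), and its relative DCUN1D2 fell from 23.7 ± 0.545 to 11.4 ± 0.696 TPM. CAND2, a cullin exchange factor, fell from 25.2 ± 0.0681 to 4.93 ± 0.199 TPM (log2 change -2.14, adjusted p = 1.76e-11). NAE1, part of the enzyme that activates NEDD8, rose from 48.9 ± 2.62 to 86.5 ± 3.96 TPM (log2 change 0.81, adjusted p = 2.8e-08), while GLMN, which binds the RING protein RBX1, and DCUN1D3 rose by 0.53 and 0.39.

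Of 14 adaptors and ubiquitin-transfer partners, 11 were in the table, and 5 were higher and 5 lower, with a median of -0.05. Over all tested genes 40.2% were higher and 49.8% lower, with a median of -0.12. The conjugating enzymes UBE2L3, CDC34 and UBE2G1 fell by 0.80, 0.79 and 0.74. UBE2D3, UBE2D2 and the RING-between-RING ligase ARIH2 rose by 0.50, 0.42 and 0.35. Of 39 substrate receptors and other BTB proteins outside the symbol patterns, 38 were tested, with 15 higher and 16 lower and a median of -0.03. With TMM factors these counts were 18 and 15, so their balance turned with the scaling. ABTB2, a BTB protein, read 20.6, 20.6 and 21.1 TPM in the WT libraries against 0, 0.1 and 0.03 TPM in the S127A libraries (log2 change -4.38, adjusted p = 3.96e-13). KLHDC3 and DCAF7 fell by 1.34 and 1.21. SOCS2, a CUL5 receptor that limits cytokine signalling, rose from 0.703 ± 0.274 to 18.99 ± 0.697 TPM (log2 change 3.56, adjusted p = 5.43e-11), as did SOCS3 and LMO7, by 1.78 and 1.61.

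Of 28 genes whose proteins are known substrates of these ligases, 27 were tested, with 11 higher and 14 lower, beside 40.2% higher and 49.8% lower over all tested genes. Their median was -0.15, which lies near the -0.12 of all tested genes. DEPTOR, an mTOR inhibitor degraded through β-TrCP, fell from 29.8 ± 2.06 to 1.57 ± 0.111 TPM (log2 change -3.58, adjusted p = 2.05e-12). CTNNB1, which encodes β-catenin, fell from 805 ± 21.5 to 191 ± 4.93 TPM (log2 change -2.07, adjusted p = 3.33e-13), and WNK4, a substrate of CUL3 with KLHL2 or KLHL3, fell by 2.60. SNAI1, a transcription factor of epithelial-mesenchymal transition, rose from 0.0733 ± 0.0751 to 16.5 ± 2.29 TPM (log2 change 4.02, adjusted p = 1.52e-11). MYC, a substrate of FBXW7, rose from 33.7 ± 2.19 to 187 ± 7.51 TPM (log2 change 2.44, adjusted p = 2.87e-12). CRY2, a repressor of the circadian clock, rose by 2.41, from 5.91 ± 0.471 to 35.6 ± 0.216 TPM. Substrate transcripts thus changed in both directions, and their protein levels were not measured.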

How the data were processed

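RNA-seq was analysed in 6 libraries, 3 WT and 3 S127A, grouped by their titles. The authors deposited 1 table of TPM, per the file headers, with mm10 as the build, per the submitters' processing notes. For the aligner, the quantifier, the strand setting and the upper-case symbols, no statement was found in the labels or headers. All 6 columns were used.

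Genes with a mean of at least 1 TPM were tested on log2(TPM + 1) with limma 3.58.1 in R 4.3.3 (eBayes with trend, two-sided, genotype as the only term). Adjustment was by Benjamini-Hochberg across all 10348 tested genes, and calls needed an adjusted p under 0.05. Fold changes on this scale understate those of low genes. Ratios of paralogs were compared by exact permutation tests with Python 3.11.15. The fit was tested on simulated data.

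The members and lists were chosen with earlier results of these data known. Named genes were every cullin, the 4 largest rises and falls per class (called, at least 5 TPM in 1 group, no overlap), a panel whatever its values, up to 3 rises and falls per pathway list and opposite paralog pairs. Substrates set beside a receptor, and other genes given only by their change, were added to these. A gene that the rule names is not reported here. Coordinates are from GENCODE of mm10, which matched 141 of 142 symbols. The 17 alternatives were pseudocounts of 0.1 and 5, no filter or a mean of 5 TPM, TMM factors, quantile normalization, a common total, no trend, robust fitting, a replicate block, identical values counted once and leaving out each library.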

Additional observations from a re-analysis of the deposited data

How the results depend on the processing

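Of the 100 called ligase genes, 95 kept their call in every alternative that tested them. FBXO45, CUL2, KLHL36, KLHL8 and FBXO47 lost it in at least 1, and FBXL18, FBXO46, KCTD21 and KBTBD3 gained one in at least 1. Of the called genes on the pathway lists, COPS5, COPS6, UBE2D1, BTRC and RHOA lost it in at least 1. Leaving out each library in turn gave 99 to 101 called, with 37 to 38 higher and 62 to 64 lower. With a mean of at least 5 TPM, 2 BTBD genes were higher in place of 4, since fewer genes were tested. FBXW5, uncalled throughout, changed by 0.04 under TMM scaling, by 0.0156 after quantile normalization and by 0.00 at a common total. KBTBD2, also uncalled, changed by 0.0682, 0.045 and 0.0281 under these, and by between -0.0437 and 0.0094 when 1 library was left out, the latter without WT replicate 1. The ratio changes depended on the pseudocount where a gene was near 0: KLHL21 to KLHL30 gave 4.52 at 0.1 and 2.77 at 5, FBXO2 to FBXO6 gave -5.37 and -3.35, and FBXO25 to FBXO32 gave 2.10 and 0.69. The labels do not say that replicate numbers pair the samples. Correlations of same-numbered deviations were 0.117, 0.017 and 0.028, and those of other numbers ran from -0.076 to 0.054. Of 3 WT libraries, 1 matched its own number best. With 3 libraries per group these values do not settle whether the samples were paired. A replicate block gave 100 called ligase genes, 37 higher and 63 lower, and 9339 called of all genes. TPM gives no depth, so changes near 0 TPM carry an unknown counting error.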
